A study of Equus caballus with 17 samples.

Results

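A set of 46 genes with a higher mean level at 1% than at 21% O2, at 48 h and again at 72 h, was examined in cultured horse skeletal muscle cells, out of 38849 gene IDs counted. The members were chosen by their measured levels. Counts were scaled by the library's total to CPM, the usual unit for counts at a common depth, and taken as log2(CPM + 1). Each member had a difference in group means of at least 0.4 at both times, a mean of at least 5 CPM over all 17 libraries, and a difference of less than 1 between 72 h and 48 h at 21% O2. The 100 most abundant IDs were left out. The differences between 1% and 21% O2 are therefore given as a description, with no test, and the 3 libraries at 3% O2 entered the choice only through the mean CPM over all libraries.

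All cultures came from the gluteus medius of 1 preterm foal, aged 10 months per the labels, so they speak for 1 animal. They were pre-plated against fibroblasts and grown in flasks with a gelatin coat. The groups were 21% O2 for 48 h (5 libraries), 1% O2 for 48 h (3 libraries), 21% O2 for 72 h (4 libraries), 3% O2 for 72 h (3 libraries) and 1% O2 for 72 h (2 libraries), with 21% O2 as the level of room air. The labels call the replicates technical, so p-values may measure technical spread alone. Libraries are called by the replicate number in their titles. Each held 12358247 to 24274627 counted reads. The files do not pair their Ensembl IDs with gene names, and 0 of them matched a symbol in the reference table. Members are thus described by number and level, with 4 given by ID, and the muscle and fibroblast markers of the culture were not checked.

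Cells sense oxygen largely through enzymes that mark the hypoxia-inducible factors for destruction while oxygen is plentiful. When oxygen falls, these factors build up and switch on genes for glucose uptake and glycolysis, blood vessel growth and the handling of low oxygen. Muscle precursor cells can respond in this way too, and low oxygen is also known to affect how readily they divide or form muscle fibres. Which of the 46 members belong to that programme was not tested, because their names are not used here.

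The libraries did not sort cleanly by group. Over the 10168 IDs with a mean of at least 5 CPM, 7 of 17 libraries had their closest neighbour, by the median absolute difference in log2(CPM + 1), within their own group. Library 1 at 1% O2 for 48 h lay 0.102 from library 1 at 21% O2 for 48 h and 0.242 from the nearest library of its own group. Library 1 at 1% O2 for 72 h also lay closest to a library at 21% O2 for 48 h, at 0.124, against 0.352 from the other library of its group. At 48 h, library 3 at 21% O2 and library 3 at 1% O2 were closest to each other, at 0.114. Within their own groups the nearest lay at 0.335 and 0.330. Similarly, library 1 at 3% O2 was closest to library 1 at 1% O2 for 72 h, at 0.129, against 0.318 within its group. Library 2 at 1% O2 for 72 h was closest to library 2 at 1% O2 for 48 h, at 0.221. This was not mutual, as library 2 at 1% O2 for 48 h was closest to library 1 at 1% O2 for 72 h, at 0.218. The labels are taken as deposited, and whether any library carries a wrong label was not tested. A wrong label on library 1 or library 2 at 1% O2 for 72 h would change which genes are members and every value given for that group. A wrong label in the other groups at 1% or 21% O2 could change the members too. One at 3% O2 would change the comparisons with 3% O2.

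The members' mean level was highest in a pair of libraries, library 2 at 1% O2 for 48 h and library 2 at 1% O2 for 72 h. The mean of log2(CPM + 1) over the 46 members was 5.93 and 5.91 in these libraries. The other libraries at 1% O2 stood at 4.96 and 5.14 at 48 h (replicates 1 and 3) and at 4.29 at 72 h (replicate 1). At 21% O2 the values ran from 4.23 to 5.06 at 48 h and from 4.25 to 4.79 at 72 h, and at 3% O2 they were 4.23, 4.82 and 4.85. Library 1 at 1% O2 for 72 h thus lay inside the range at 21% O2. The group means were 5.35 ± 0.513 at 1% O2 (SD, n = 3) and 4.56 ± 0.337 at 21% O2 (SD, n = 5) for 48 h. For 72 h they were 5.10 ± 1.15 at 1% (SD, n = 2), 4.63 ± 0.350 at 3% (SD, n = 3) and 4.40 ± 0.262 at 21% O2 (SD, n = 4). These are levels in bulk RNA, where more cells of a type and more RNA per cell cannot be told apart.

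**Figure D1:**
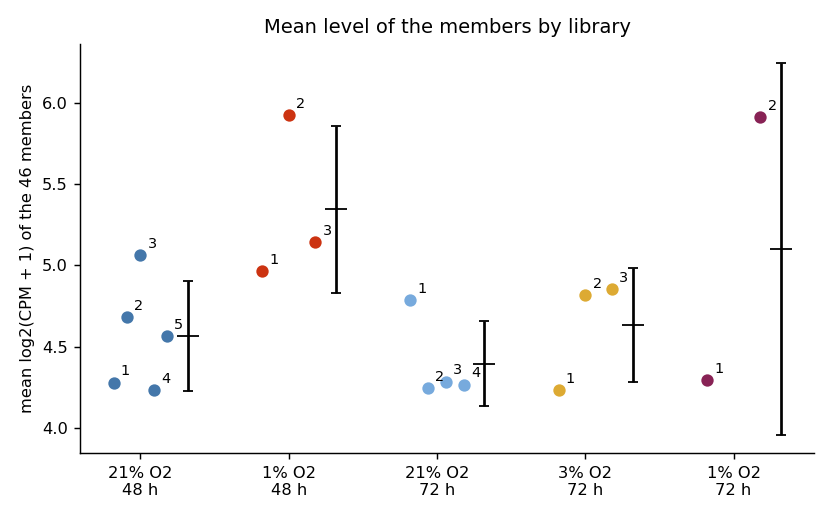
Mean log2(CPM + 1) over the 46 members (vertical axis) in each of the 17 libraries, grouped by O2 level and time; points carry the replicate number, and the dash and bar beside each group give the mean and SD. The libraries numbered 2 at 1% O2 stand at 5.93 and 5.91, above every other library, and library 1 at 1% O2 for 72 h stands at 4.29.

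The same pair of libraries held the highest values of most single members. In 30 of 46 members (65.2%) they were the 2 highest of all 17 libraries, and this was so for 553 of the other 10022 IDs of that level (5.52%). Since both libraries entered the choice of members, this comparison is a description. Library 2 at 1% O2 for 48 h exceeded the mean at 21% O2 of its time by at least 0.4 in 43 members, with a median excess of 1.25. For library 2 at 1% O2 for 72 h this was 46 of 46 members, with a median of 1.48 and a range of 0.57 to 3.52. Of all IDs of that level, 10.8% at 48 h and 11.9% at 72 h were at least 0.4 above that mean in these libraries. The excess reached 1, or about 2-fold, in both of these libraries for 28 members.

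The other libraries at 1% O2 showed smaller differences from 21% O2. At 48 h, replicate 1 passed 0.4 in 19 members (median excess 0.31) and replicate 3 in 21 members (median 0.37). Of all IDs of that level, 4.25% and 11.1% passed 0.4 in these replicates. At 72 h, replicate 1 passed 0.4 in 6 members, lay below the mean at 21% O2 in 25, and had a median difference of -0.06. In that library 16.0% of all IDs of that level passed 0.4. No member had all 5 libraries at 1% O2 above every library at 21% O2 of the same time. Of the 5 libraries, 4 did so for 12 members, 3 for 13, 2 for 18, 1 for 2 and none for 1 member. At 48 h alone the groups did not overlap for 8 of 46 members, where 0.718% of all IDs of that level were higher without overlap. At 72 h this was so for 6 members, and for 15.9% of all IDs. Both comparisons chose the members, so nothing is read from these shares.

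**Figure D2:**
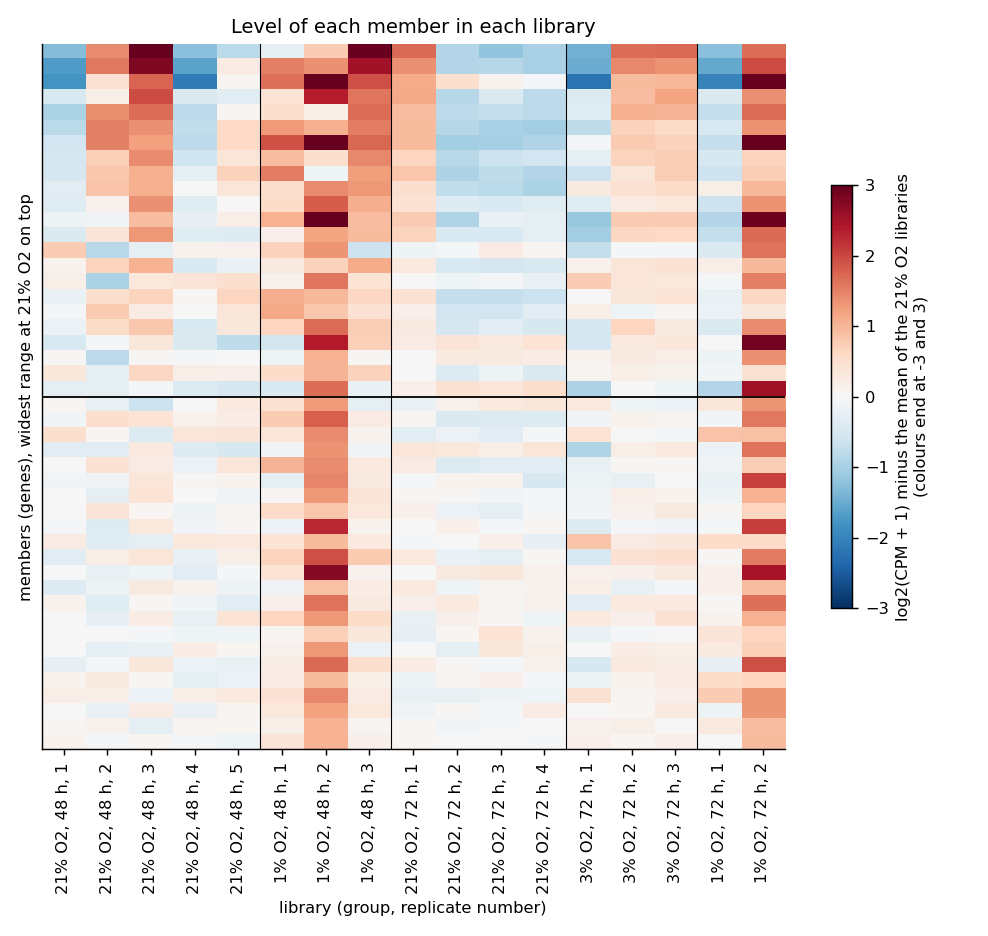
Each row is 1 of the 46 members, each column 1 library (group and replicate number), and colour gives log2(CPM + 1) less that gene's mean over the 9 libraries at 21% O2. Rows are ordered by the range at 21% O2, with a line at a range of 1; the 23 rows below the line are high mainly in the libraries numbered 2 at 1% O2, and those above it vary among the 21% O2 libraries as well.

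The members were of middling abundance. Their mean levels ran from 5.14 to 258 CPM with a median of 30.3, against 34.9 CPM for all 10168 IDs. There were 12 members under 10 CPM, 25 between 10 and 100, and 9 at 100 CPM or more. The difference in log2(CPM + 1) between 1% and 21% O2 had a median of 0.64 at 48 h (range 0.40 to 2.88) and of 0.61 at 72 h (range 0.41 to 1.66). The median at 48 h was 0.39 without library 2 at 1% O2, 0.80 without library 1 and 0.79 without library 3. The median at 72 h was -0.06 without library 2 at 1% O2 and 1.48 without library 1. Among 10068 IDs of sufficient level outside the 100 most abundant, 250 met the threshold at 48 h and 994 at 72 h. Both thresholds were met by 50 IDs, of which 4 were dropped for their difference with time at 21% O2. In the opposite direction, 58 IDs met the mirror image of the rule.

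The choice was a close one for several genes. The smaller of the 2 differences was 0.403, 0.413 and 0.415 in the 3 members just inside the threshold. In the 3 genes just outside it was 0.394, 0.395 and 0.3996.

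**Figure D3:**
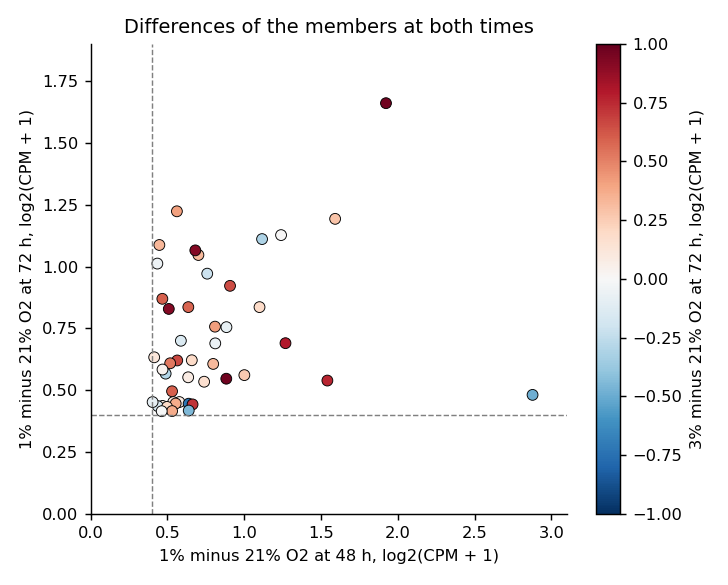
Difference in mean log2(CPM + 1) between 1% and 21% O2 at 48 h (horizontal) and at 72 h (vertical) for each of the 46 members; dashed lines mark the threshold of 0.4 and colour gives the difference between 3% and 21% O2 at 72 h. Most members lie near the thresholds, with medians of 0.64 and 0.61, and their colours run from -0.73 to 0.98.

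The member with the largest smaller difference was ENSECAG00000024531. At 48 h it stood at 50.1, 135 and 43.3 CPM at 1% O2 and at 8.14, 37.3, 30.9, 6.84 and 19.5 CPM at 21% O2. At 72 h it stood at 7.33 and 109 CPM at 1% O2 and at 25, 5.63, 5.73 and 6.29 CPM at 21% O2. All 3 libraries at 1% O2 were above all 5 at 21% O2 at 48 h, while at 72 h replicate 1 lay within the range at 21% O2 and replicate 2 far above it. The differences in mean log2(CPM + 1) were 1.92 at 48 h and 1.66 at 72 h. At 3% O2 the gene had 12.2, 22.2 and 20.8 CPM, above replicates 2, 3 and 4 at 21% O2 but below replicate 1 there.

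ENSECAG00000015069 came next, with 120, 531 and 110 CPM at 1% O2 for 48 h against 52.0, 53.0, 111, 48.7 and 66.3 CPM at 21% O2. At 72 h its values were 30.8 and 451 CPM at 1% O2 and 98.2, 30.5, 49.7 and 46.7 CPM at 21% O2. Library 3 at 1% O2 for 48 h lay just below library 3 at 21% O2, at 109.9 against 110.5 CPM, so the groups overlapped at both times. At 3% O2 the gene stood at 25.6, 98.4 and 98.5 CPM, on both sides of the range at 21% O2. Its differences in mean log2(CPM + 1) from 21% O2 were 1.59 at 48 h, 1.19 at 72 h and 0.29 for 3% O2.

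The 2 members with the lowest values at 3% relative to 21% O2 were ENSECAG00000033399 and ENSECAG00000004107. ENSECAG00000033399 had 5.98, 12.4 and 11.2 CPM at 3% O2, all below the 13.9, 17.3, 16.1 and 18.2 CPM at 21% O2 for 72 h. At 1% O2 it had 8.72, 41.4 and 10.5 CPM at 48 h and 6.18 and 76.2 CPM at 72 h. Without the libraries numbered 2, its values at 1% O2 were within the range at 21% O2 for 48 h and below that range for 72 h. At 21% O2 for 48 h it had 9.89, 10.0, 12.0, 9.02 and 8.40 CPM.

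ENSECAG00000004107 had the largest difference of any member at 48 h, 2.88 in log2(CPM + 1). It stood at 116, 612 and 141 CPM at 1% O2 for 48 h and at 9.63, 49.5, 123, 7.62 and 37.7 CPM at 21% O2. At 72 h it had 8.24 and 509 CPM at 1% O2, 7.10, 70.8 and 72.7 CPM at 3% O2, and 79.6, 50.7, 38.7 and 34.3 CPM at 21% O2. Library 1 at 1% O2 and library 1 at 3% O2 were thus the lowest of the 72 h libraries, and library 2 at 1% O2 the highest.

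**Figure D4:**
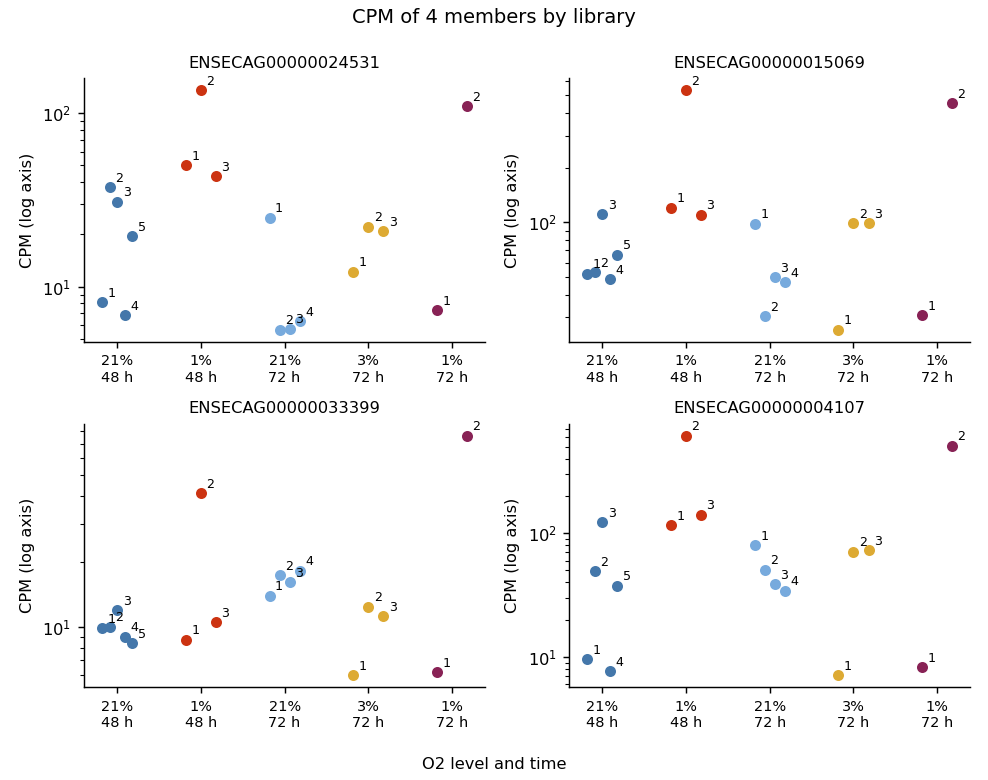
CPM on a log axis for 4 members in each library, grouped by O2 level and time, with the replicate number beside each point. In all 4 the libraries numbered 2 at 1% O2 are the 2 highest, and library 1 at 1% O2 for 72 h lies at 7.33, 30.8, 6.18 and 8.24 CPM in the order of the panels.

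The members differed from each other in how steady they were at 21% O2. The range of log2(CPM + 1) over the 9 libraries at 21% O2 had a median of 1.00 and ran from 0.24 to 4.56. A split at a range of 1, set after the values were seen, gave 23 members on each side. The 23 steadier members had a mean level of 4.03 to 4.14 in the libraries at 21% O2, which the split itself favours. Their level was 4.05, 4.18 and 4.23 at 3% O2, and at 1% O2 it was 4.38 and 4.31 (replicates 1 and 3 at 48 h) and 4.23 (library 1 at 72 h). In the libraries numbered 2 it was 5.47 at 48 h and 5.33 at 72 h. These were the 2 highest libraries in 21 of the 23 steadier members. A split on the range at 21% O2 and the choice of members both favour that number, so it is a description only.

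The 23 more variable members have some high library at 21% O2 by construction, and which libraries these were is described here. Their mean level was 5.98 in replicate 3 and 5.34 in library 2 at 21% O2 for 48 h, against 4.48, 4.43 and 4.9996 in replicates 1, 4 and 5. At 21% O2 for 72 h it was 5.48 in replicate 1 against 4.43, 4.48 and 4.46 in the others, and at 3% O2 it was 4.41 in replicate 1 against 5.46 and 5.47. At 1% O2 it was 5.55, 6.39 and 5.98 at 48 h and 4.36 and 6.50 at 72 h. The level in library 3 at 21% O2 for 48 h was therefore about that of library 3 at 1% O2. Among these 23 members, replicate 1 was the highest library at 21% O2 for 72 h in 19 and the lowest at 3% O2 in 21.

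How 3% O2 compared with 21% O2 at 72 h was tested across all genes by edgeR's quasi-likelihood test, with p-values adjusted by Benjamini-Hochberg. All 46 members were among the 14465 genes tested. None of the members passed an adjusted p of 0.05, and 0% of all genes did. At an unadjusted p under 0.05 there was 1 member, higher at 3% O2, and 794 genes in all. Without library 1 at 21% O2 for 72 h there were 9 such members, all higher, out of 1137 such genes. In that fit 27 genes but no member passed the adjusted p. Without library 1 at 3% O2 there were 0 such members and 286 such genes. With the 2 groups fitted alone there were 7 members higher and 1 lower, out of 1312 genes. DESeq2 and limma-voom also called none of the members, with 2 and 3 of them at an unadjusted p under 0.05, out of 830 and 1039 genes. Over all genes DESeq2 called 6, all lower at 3% O2, and limma-voom called 0. The smallest adjusted p of a member by edgeR was 0.796. The same 4 libraries at 21% O2 for 72 h served in the choice of members, which favours a higher value at 3% O2.

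The difference in mean log2(CPM + 1) between 3% and 21% O2 had a median of 0.20 over the members, with a range of -0.73 to 0.98. Over all 10168 IDs the median was -0.02. It was at least 0.4 for 15 of 46 members, where 3.75% of all IDs reached that size. It was -0.4 or less for 3 of 46 members and for 671 of the 10168 IDs. The 3 libraries at 3% O2 were above all 4 at 21% O2 for 4 members, where 4% of all IDs were so placed, and below all of them for 2. The 4 members became 12 without library 1 at 3% O2, 18 without library 1 at 21% O2 and 29 without both. The share of all IDs was not computed for these settings, nor for the 2 members placed below. With fewer libraries any gene is free of overlap more easily, so nothing is read from these counts. Replicate 1 was the lowest library at 3% O2 for 35 of 46 members, with a median difference of -0.07 from the mean at 21% O2. For replicates 2 and 3 that median was 0.24 and 0.36, and 18 members passed 0.4 in both. The share of all IDs that passed 0.4 in both was not computed. Taken singly, replicates 2 and 3 passed 0.4 in 20 and 19 members, and in 3.06% and 2.96% of all IDs. Replicate 1 passed 0.4 in 8 members and in 19.6% of all IDs. Without library 1 at 3% O2 the median difference over the members was 0.30. Without library 1 at 21% O2 for 72 h, the highest library of its group for 28 members, it was also 0.30. It was 0.12 without library 2 at 3% O2, without library 3 at 3% O2, or without library 2 at 21% O2. By edgeR, the log2 fold change at 3% O2 was 0.80 ± 0.82 for ENSECAG00000024531 (SE, adjusted p = 0.993) and 0.42 ± 0.75 for ENSECAG00000015069 (SE, adjusted p = 0.999). It was -0.70 ± 0.63 for ENSECAG00000033399 (SE, adjusted p = 0.980).

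For ENSECAG00000004107 the edgeR log2 fold change was 0.01 ± 1.11 (SE, adjusted p = 0.9997), while the difference in mean log2(CPM + 1) was -0.49. The group means in CPM were 50.2 ± 37.3 at 3% (SD, n = 3) and 50.8 ± 20.4 at 21% O2 (SD, n = 4). The difference of logs was negative and the ratio of means near 1, with library 1 at 3% O2 the lowest of the 7 at 7.10 CPM.

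The lower oxygen levels were also set side by side at 72 h. None of the members passed the edgeR test between 3% and 1% O2, and 0% of all genes did. At an unadjusted p under 0.05 there were 17 members, all lower at 3% O2, out of 1265 genes. There were 11 without library 1 at 3% O2, out of 2219 genes. Leaving out library 1 or library 2 at 1% O2 leaves a single library in that group, so only the median fold change is given for these fits. DESeq2 and limma-voom called none, with 16 and 6 members at an unadjusted p under 0.05, out of 1423 and 931 genes. The median log2 fold change over the members was -0.68 by edgeR, and 0.005 over all genes tested. Both libraries at 1% O2 had been used to choose members high at 1%, so a negative value is favoured by the choice. Without library 2 at 1% O2 the median was 0.25, a turn in direction, and without replicate 1 it was -1.17. All 3 libraries at 3% O2 lay below library 2 at 1% O2 for 42 members and above replicate 1 for 16. The share of all IDs so placed was not computed and both libraries at 1% O2 entered the choice, so nothing is read from these counts. The 4 members given by ID had edgeR adjusted p from 0.552 to 0.555. In the order of the panels their log2 fold changes were -1.78 ± 0.96, -1.81 ± 0.89, -2.18 ± 0.73 and -2.48 ± 1.32 (SE).

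Time at 1% O2 was compared between 2 libraries at 72 h and 3 at 48 h. All of these libraries had been used to choose the members, which had to be high at 1% O2 at both times. The test is therefore not independent of the choice. Its values are given as a description, and neither a change with time nor its absence is read from them. None of the members passed the edgeR test, again with 0% of all genes called. At an unadjusted p under 0.05 there was 1 member, lower at 72 h, and 258 genes in all. There were 13, all higher at 72 h, without library 2 at 48 h, out of 1183 genes. Leaving out library 1 or library 2 at 72 h leaves a single library there, so only the median fold change is given for these fits. DESeq2 and limma-voom called no member, with 1 and 2 members at an unadjusted p under 0.05, out of 288 and 196 genes. The median log2 fold change over the members was 0.005, with 23 of 46 positive. That median was 0.38 without library 2 at 48 h and -1.17 without library 2 at 72 h. It was -0.18 without library 1 at 48 h, -0.12 without library 3 at 48 h and 0.46 without library 1 at 72 h. In mean log2(CPM + 1) the difference between 72 h and 48 h had a median of -0.12 over the members and 0.002 over all 10168 IDs. That difference was -0.4 or less for 16 members and 490 of all IDs, and at least 0.4 for 3 members and 155 of all IDs. For ENSECAG00000004107 it was -1.66, where the edgeR log2 fold change was -0.06.

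Which genes met the rule depended on the libraries numbered 2 at 1% O2. Without library 2 at 1% O2 for 48 h, 25 genes met it, 22 of them members. Without library 2 at 1% O2 for 72 h, 10 genes met it, 6 of them members. With both left out, a setting added after the values were seen that leaves 1 library at 1% O2 for 72 h, 11 genes met it, of which 2 were members. Leaving out library 3 at 1% O2 for 48 h raised the number to 144, with 41 of the members. It was 59, with 42 of the members, when the 48 h library numbered 1 at 1% O2 was left out, and 101, with all 46, when the 72 h library numbered 1 at 1% O2 was. Without any 1 of the libraries at 3% O2, 47 genes met the rule, the 46 members among them. Without any 1 of the 9 libraries at 21% O2, between 43 and 52 genes met the rule and 35 to 44 of them were members.

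**Figure D5:**
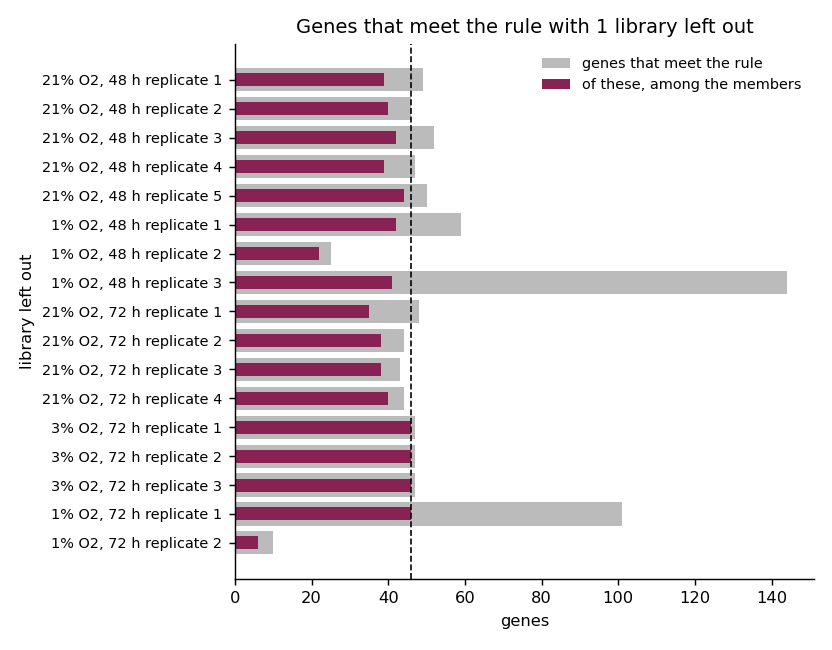
Number of genes that meet the rule (grey bars) when the library named on the left is left out, and how many of them are among the 46 members (inner bars); the dashed line marks 46. The number is 10 without replicate 2 and 101 without library 1 at 1% O2 for 72 h, and 144 without library 3 at 1% O2 for 48 h.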

How the data were processed

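The deposited values are whole-number read counts per Ensembl gene ID, 1 table for each of 17 libraries. Per the submitters' processing notes, fastp 0.23.2, STAR 2.7.10a, HTSeq 0.13.5, DESeq2 1.38.0 and the build EquCab3.0 were used. For the annotation release, strand setting and treatment of reads with several matches, the sources used here give nothing, and near-identical, overlapping or antisense genes have uncertain counts. CPM and log2(CPM + 1) were computed from library totals. Tests used edgeR 4.0.16 in R 4.3.3: TMM scaling, filterByExpr, a single fit of the 17 libraries by group, Benjamini-Hochberg adjustment over 14465 genes and SEs implied by the test statistic. DESeq2 1.42.0 and limma-voom (limma 3.58.1) were alternatives.

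The members and gene lists were chosen with earlier results of these data known. The lists work on symbols and were not run. By the rule for named genes, where no ID has a symbol, the 2 members with the largest smaller difference and the 2 with the lowest difference at 3% O2 are given. The split at a range of 1, group medians, and the settings without both libraries numbered 2 at 1% O2, or without library 1 at 3% and at 21% O2 for 72 h, were added after seeing the data.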

Additional observations from a re-analysis of the deposited data

Results flagged for a closer look

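In groups of 4 or 5 libraries, the gap between the highest or lowest value and its neighbour was set against the range of the group. Of 10 groups of values, 3 had 1 value far from the rest, where chance gives about 1 in 20 for normally spread values. Whether CPM values are spread so was not tested. The groups share libraries and the genes were picked for large differences. The mean log2(CPM + 1) of the members was 4.79 in library 1 at 21% O2 for 72 h, where the rest of the group held 4.25 to 4.28. ENSECAG00000024531 stood at 25 CPM in the same library, against 5.63 to 6.29. ENSECAG00000015069 stood at 111 CPM in library 3 at 21% O2 for 48 h, against 48.7 to 66.3. Over all 46 members, library 1 at 21% O2 for 72 h was far above its group for 16 and library 3 at 21% O2 for 48 h for 6. The share of all IDs was not computed, and the members are not independent of each other, so nothing is read from these counts.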

How the results depend on the processing

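In each of the 3 tested comparisons the number of members called was 0 under every alternative considered here. These were other scalings, other low-count filters, DESeq2, limma-voom, the groups alone, the replicate block and each library left out. Fits that leave a single library at 1% O2 for 72 h are not counted. The smallest adjusted p of a member ran from 0.214 to 0.99986 for 3% against 21% O2. It ran from 0.233 to 0.857 for 3% against 1% O2, and was at least 0.567 for time at 1% O2.

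The replicate numbers were not taken as pairs. The correlations of same-numbered deviations were -0.15, -0.08 and -0.08 between 3% and 21% O2. They were 0.43 and 0.37 between 3% and 1% O2, and 0.38 and 0.29 between the times at 1% O2, where only 2 numbers are shared and a minimum of 3 pairs was not met. With the replicate block the count of members called stayed 0, and the median log2 fold change over members was 0.06 for 3% against 21% O2, against 0.29 without it. The log2 fold change with the block was -0.19 for ENSECAG00000015069 and -1.55 for ENSECAG00000004107.

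The number of genes that met the rule was 77 with a minimum of 1 CPM, 92 with none, 88 at a threshold of 0.3 and 26 at 0.5. It was 50 and 45 with log2(CPM + 0.5) and log2(CPM + 2), and 52 with TMM scaling. It ran from 10 to 144 with 1 library left out and was 11 without both libraries numbered 2 at 1% O2. By group medians 45 genes met it, 23 of them members. The median difference between 3% and 21% O2 over the members ran from 0.12 to 0.30 with 1 library left out and was 0.36 by group medians.

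For 3% against 21% O2, the sign for ENSECAG00000004107 turned with library size only (-0.021), with limma-voom (-0.57), without replicates 2, 3 and 4 at 21% O2 (-0.0044, -0.10 and -0.14) and without replicates 2 and 3 at 3% O2 (-0.32 and -0.36), and without library 1 at 3% O2 it was 0.53. Without library 2 at 1% O2, the log2 fold change of 3% against 1% O2 was 1.36 for ENSECAG00000024531, 1.31 for ENSECAG00000015069, 0.71 for ENSECAG00000033399 and 2.65 for ENSECAG00000004107, all turned in sign, and without library 1 there it was -2.70, -2.73, -3.08 and -3.46; the cause was not tested. Without library 1 at both 3% and 21% O2 for 72 h, 8 members had an unadjusted p under 0.05, out of 765 such genes. In that fit 1 gene but no member was called.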
